A study of Mus musculus with 23 samples.

Results

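The sites described here are weaker binding sites of the nuclear receptor LXRβ, mapped in agonist-treated RAW264.7 cells, that coincide with p65 binding in endotoxin-treated mouse macrophages with and without the corepressor NCoR. They are the LXRβ peaks with a height below 20 that overlap a p65 peak by 1 bp or more in both KLA lists, wild type and NCoR knockout. Height is the normalized tag count that the authors give each peak, in tags per 10000000 tags of the library. The rule found 716 sites, among 2453 LXRβ peaks below that height and 2743 LXRβ peaks in all. Since LXRβ height and KLA p65 overlap chose the sites, both are given below as description only.

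LXRβ is 1 of the receptors through which macrophages sense oxysterols. With its partner RXR it binds response elements and controls genes of cholesterol efflux and fatty acid synthesis. NCoR is a corepressor that unliganded LXR carries on such genes. p65 (RelA) is an activating subunit of NF-κB and moves to the nucleus once TLR4 meets lipid A. Ligand-bound LXRs are also known to dampen inflammatory genes that NF-κB drives, which makes the places where both factors are found of interest.

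The p65 libraries came from peritoneal macrophages elicited with thioglycollate in male mice of 6 to 8 weeks. All mice were of strain C57BL/6. Both genotypes carried NCoR fl/fl, floxed alleles of NCoR. Wild type mice were Lys M-Cre -/- and knockout mice Lys M-Cre +/-, so deletion depends on a Cre of the myeloid lineage. After a night in 0.5% serum, cells stayed untreated or received KLA (Kdo2-Lipid A, an endotoxin core that TLR4 recognises) at 100 ng/ml for 1 h. LXRβ was mapped by its biotin tag in BirA/BLRP-LXRb RAW264.7 cells, a stable mouse macrophage line labelled C57BL/6, treated with the synthetic LXR ligand GW3965 (1 µM, 2 h). Their serum was also 0.5%. These RAW264.7 cells had no KLA, and the peritoneal macrophages in these libraries had no GW3965, so overlap means the same place in the genome and not binding in 1 cell. Whether animals were pooled is not given in the sources used here.

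Each group was 1 library, so replicate error could not be measured and no test between groups was run. The name of the LXRβ tag set ends in All, per its header, and whether it pools several runs or cultures is not given in the sources used here. Libraries held 777228 to 11758634 tags, fewest in the untreated p65 libraries and most in LXRβ. In height, 1 tag was worth 12.9 and 12.7 in the untreated wild type and knockout libraries, 4.72 and 5.98 in the KLA libraries, and 0.910 for LXRβ. A site missing from a list may still hold tags: the headers set a threshold of 5 tags for p65 and 9 for LXRβ, and the lowest listed wild type KLA peaks held 4. All intervals are at 95%. Those of shares and heights cover counting error only. Those of median ratios come from the order of the ratios over sites, and sites are not replicates of a genotype. Positions are on mouse build mm9, for which no gene annotation or genome sequence was used here. Sites are therefore named by position, and macrophage marker loci could not be looked up.

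The LXRβ peaks at these sites were low throughout. They rested on 9 to 21 tags, with heights of 8.2 to 19.1, a median of 10.9 and quartiles of 9.1 and 12.7. The authors' fold over input had a median of 7.67 (quartiles 6.97 and 9.76), and the fold over the surrounding 10000 bp one of 10.2 (8.32 and 13.2). Weaker LXRβ peaks without KLA p65 had the same median and quartiles of fold over input. Scaled input tags stood at the list's lowest value of 1.4 except at 116 sites (16.2%), where they reached at most 4.0, so few sites had raised input. In the whole LXRβ list input was above that lowest value at 16.7% of peaks.

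The threshold of 20 fell between adjacent tag steps. Just inside it were 5 sites of 21 tags (height 19.1), whose KLA p65 heights, given for wild type and then knockout, varied widely from site to site. They were 108.5 and 47.8 on chromosome 1 (84403604 to 84403724), and 70.7 and 101.6 on chromosome 10 (94699046 to 94699166). Chromosome 6 from 137507495 to 137507615 had 146.2 and 143.4, and chromosome 8 from 74846486 to 74846606 had 212.2 and 280.8. The last, at chromosome 9 from 15851243 to 15851363, had 47.2 and 53.8. Genotypes were thus close at some of these sites and not at others. Just outside were peaks of 22 tags (height 20) with p65 in both KLA lists. Their p65 heights were 80.2 and 107.6 on chromosome 1 (6444455 to 6444575). On chromosome 11 they were 33.0 and 41.8 (79982210 to 79982330) and 226.4 and 143.4 (97520913 to 97521033). They were 254.7 and 245.0 on chromosome 12 (3872971 to 3873091) and 56.6 and 59.8 on chromosome 19 (32351421 to 32351541). Peaks on either side of the threshold covered a similar range of p65 heights.

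Coincidence with p65 did not rise steadily with LXRβ height. Of LXRβ peaks below 20, 29.2% (exact Clopper-Pearson interval 27.4 to 31.0) had KLA p65 in both lists, against 62 of 290 peaks at 20 or more (21.4%, 16.8 to 26.6) and 28.4% of all LXRβ peaks. The share was 22.3% (18.0 to 27.2) of 336 peaks at the lowest height of 8.2 and 25.1% of 513 peaks at 9.1. From 10.0 to 10.9 it was 30.5% of 764 peaks, and at 11.8 it was 32.4% of 238. It was 37.1% (30.0 to 44.6) of 178 peaks at 12.7 and 37.8% (30.2 to 45.9) of 156 peaks from 15.5 to 17.3. Among 86 peaks from 30.0 to 49.2 it was 14.0% (7.42 to 23.1). Between these steps it was 29.9% (23.9 to 36.5) of 214 peaks from 13.7 to 14.6, and among the 49 tallest peaks, from 50.1 to 146.5, it was 24.5% (13.3 to 38.9). The share thus moved up and down with height, and the intervals of all neighbouring steps overlapped.

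**Figure D1:**
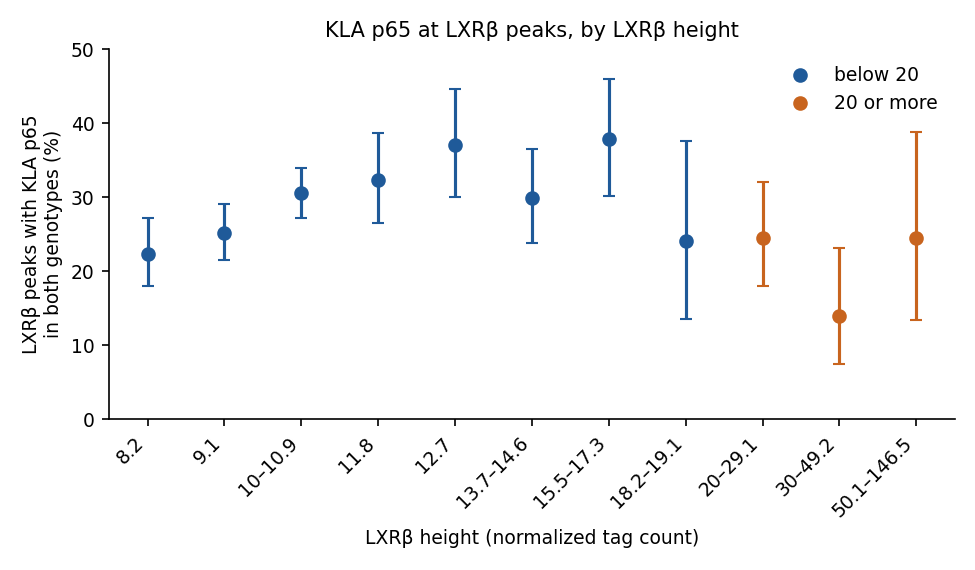
Share of LXRβ peaks that overlap a KLA p65 peak in both genotypes (vertical axis, percent), by LXRβ height (horizontal axis, normalized tag count). Points are shares of the peaks in each height step and bars exact 95% Clopper-Pearson intervals; the share is 22.3% at 8.2, 37.8% from 15.5 to 17.3 and 14.0% from 30.0 to 49.2.

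At the 716 sites, as at stronger LXRβ peaks with KLA p65, p65 peaks after KLA were taller than at p65 sites in general. In wild type KLA cells p65 height at the 716 sites ran from 18.9 to 622.5 with a median of 75.5 (quartiles 47.2 and 122.6). In knockout KLA cells it ran from 29.9 to 699.1 with a median of 77.7 (52.3 and 119.5). The 62 stronger LXRβ peaks with p65 in both KLA lists had similar medians, 73.1 and 74.7. Over all 16203 wild type KLA peaks that overlap a knockout KLA peak the medians were 56.6 and 59.8. At 20 of the 716 sites the wild type and knockout peaks both overlapped the LXRβ peak but not each other, so 696 sites belong to this larger set. They made up 4.3% of it. By the mean of both KLA heights, the sites were 241 of 8039 p65 sites under 60 (3.00%, 2.64 to 3.39), 275 of 5552 from 60 to 120 (4.95%), 133 of 2134 from 120 to 240 (6.23%) and 47 of 478 at 240 or more (9.83%, 7.31 to 12.9). The taller the p65 site, the more often it carried a weak LXRβ peak. Among the 716 sites themselves LXRβ and p65 heights showed no common order, with a Spearman rho of 0.0078 for wild type and 0.0096 for knockout p65. LXRβ heights here span only a few tags, which limits any such order.

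The tallest p65 peaks among these sites stood over LXRβ peaks of only 10 or 11 tags. At chromosome 17 from 29532440 to 29532560 LXRβ was 9.1 (exact Poisson interval 4.36 to 16.7), while KLA p65 reached 622.5 (521 to 738) in wild type cells and 699.1 (578 to 838) without NCoR. A second site on chromosome 17, from 29531139 to 29531259, also had LXRβ at 9.1, with p65 at 575.4 (478 to 687) in wild type and 424.3 (331 to 535) in knockout cells. The wild type interval of each site overlapped the knockout interval, and neither site had an untreated p65 peak. At chromosome 4 from 102296813 to 102296933, with LXRβ at 10.0, p65 was 532.9 and 555.7. Chromosome 1 from 133007499 to 133007619 also had LXRβ at 10.0, with p65 at 495.2 and 472.1 after KLA and at 101.8 in untreated knockout cells. At chromosome 11 from 70281457 to 70281577 (LXRβ 10.0) p65 was 128.7 untreated and 471.6 with KLA in the wild type, and 101.8 and 334.6 in the knockout. Each KLA height there lay above the interval of its untreated height. The knockout list also placed chromosome 16 from 3723484 to 3723604 (457.5 wild type, 484.0 knockout) and chromosome 17 from 88511703 to 88511823 (400.9 and 442.2) among its highest 5, both with LXRβ at 10.0. At these 7 sites the knockout to wild type ratio lay between 0.71 and 1.12.

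The genotypes were compared after KLA at sites that have a p65 peak in both by choice. The 349 weaker LXRβ peaks with KLA p65 in the wild type list alone and the 158 in the knockout list alone are outside it, so the ratios describe heights at shared sites and not gain or loss of p65. Over the 716 sites the median knockout to wild type height ratio was 1.01 (0.986 to 1.05 by order statistics, quartiles 0.793 and 1.27), against 1.09 (1.07 to 1.09) over all p65 sites in both KLA lists. Knockout was higher at 366 sites and wild type at 349, so the sites divided almost evenly. Its side of 1 depended on the measure: it was 0.928 per bp of peak (144 bp in the knockout list, 132 bp in the wild type list), 0.977 by the findPeaks score and 0.975 with p65 peaks of 40 or more. The authors used an input for the knockout list and none for the wild type list, and a genome size setting of 4000000000 against 2000000000. Within 2-fold lay 667 sites (93.2%). The ratio was 2 or more at 33 sites (4.61%), where the share of all p65 sites in both lists was 6.28%, and 0.5 or less at 16 sites (2.23%), where it was 2.43%. Neither count stands above its background. At equal p65 height the sites and p65 sites without LXRβ had similar medians, 1.11 and 1.15 under a mean height of 60 and 0.951 and 0.977 from 120 to 240.

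**Figure D2:**
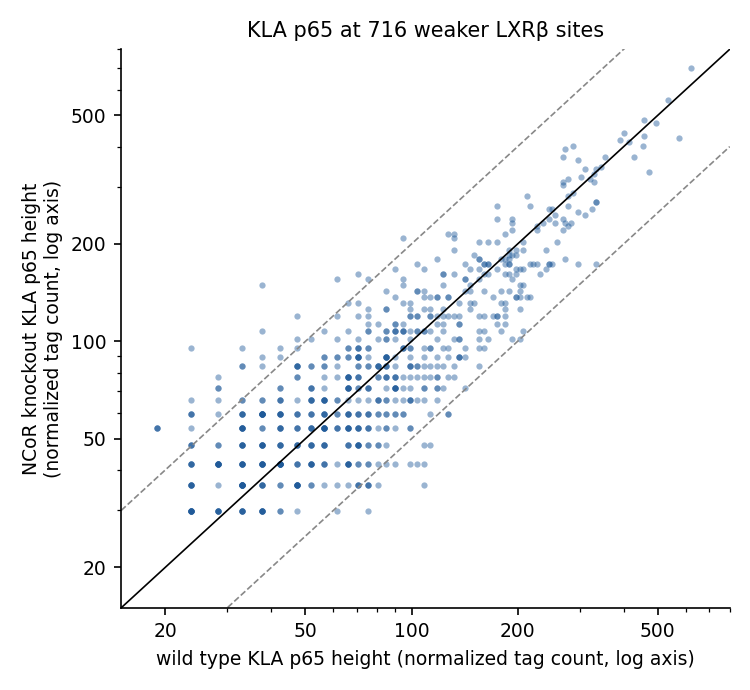
KLA p65 height in wild type (horizontal log axis) and NCoR knockout macrophages (vertical log axis), in normalized tag counts, with 1 point for each of the 716 sites. The solid line marks equal height and the dashed lines a 2-fold difference; 667 points lie within them, and the spread is widest at low heights, where 1 tag is a large step.

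The 5 highest and 5 lowest ratios each had few tags in the lower of the 2 libraries. The highest ratio, 4.05, was at chromosome 3 from 152786717 to 152786837, where KLA p65 was 23.6 (7.66 to 55.0) with NCoR intact and 95.6 (54.6 to 155) without it. Next came chromosome 9 from 119958648 to 119958768 with 37.7 and 149.4, chromosome 5 from 17520136 to 17520256 with 33.0 and 95.6, and chromosome 3 from 95315844 to 95315964 with 37.7 and 107.6. On chromosome 5 (145659473 to 145659593) the heights were 18.9 and 53.8, a ratio of 2.85. At these 5 sites the wild type peak held 4 to 8 tags. The lowest ratio, 0.331, was at chromosome 10 from 110564633 to 110564753, with 108.5 (68.8 to 163) in wild type and 35.9 (13.2 to 78.0) in knockout cells. Chromosome 15 from 61888102 to 61888222 had 108.5 and 41.8, and chromosome 16 from 87586256 to 87586376 had 75.5 and 29.9. Chromosome 6 from 115234250 to 115234370 had 103.8 and 41.8, and chromosome 2 from 163468689 to 163468809 had 99 and 41.8. At these 5 sites the knockout peak held 5 to 7 tags, and its interval overlapped that of the wild type.

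Poisson intervals of the 2 genotypes lay wholly apart at only 3 of the 716 sites, which were chosen for naming after their values were seen. In 2 of these the knockout was higher (0.279%, against 0.247% of all p65 sites in both lists): chromosome 9 from 119958648 to 119958768, with 37.7 (16.3 to 74.3) and 149.4 (96.7 to 221), and chromosome 9 from 99082609 to 99082729, with 94.3 (57.6 to 146) and 209.1 (146 to 291), intervals that nearly meet. In 1 the wild type was higher (0.140%, against 0.222%): chromosome 16 from 49970725 to 49970845, with 334.8 (262 to 422) and 173.3 (116 to 249). On chromosome 16 untreated p65 was 193.0 in wild type and 89.0 in knockout cells. The intervals of these untreated heights overlap, so no order of the genotypes before KLA is resolved. Such sites were no more frequent here than among p65 sites in general.

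The untreated p65 lists were not used to choose the sites. An untreated wild type peak overlapped 71 of the 716 sites (9.92%, 7.83 to 12.3), where 3.57% of all LXRβ peaks and 2.85% of all p65 sites in both KLA lists had one. An untreated knockout peak overlapped 105 sites (14.7%, 12.2 to 17.5), where 7.29% of all LXRβ peaks and 4.88% of those p65 sites had one. In 36 sites (5.03%) both genotypes were listed and in 140 (19.6%) at least 1 was. Among the 1230 weaker LXRβ peaks without KLA p65, 5 (0.407%) had an untreated wild type and 41 (3.33%, 2.40 to 4.50) an untreated knockout peak. The 62 stronger LXRβ peaks with p65 in both KLA lists had 6 (9.68%, 3.63 to 19.9) and 11 (17.7%, 9.20 to 29.5), shares whose intervals hold those of the weaker sites. Stronger and weaker LXRβ sites with KLA p65 were thus not told apart by these shares. The untreated knockout list held 2227 peaks and the wild type list 702, and its peaks were 126 bp wide against 103 bp, so the shares of the genotypes cannot be set against each other directly.

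Taller KLA p65 sites were listed more often in untreated cells, so the share was also taken at equal KLA height. In these classes the untreated peak had to overlap the wild type KLA p65 peak, and 696 of the 716 sites were counted. The shares of the sites given above took overlap with the LXRβ peak instead. With the mean KLA height from 60 to 120, an untreated wild type peak was listed at 6.91% (4.21 to 10.6) of the LXRβ sites and 2.08% (1.71 to 2.51) of the p65 sites without LXRβ. From 120 to 240 the shares were 23.3% (16.4 to 31.4) and 6.34% (5.31 to 7.50). Under 60 they were 2.49% and 0.902%, and at 240 or more 34.0% and 18.1%, with overlapping intervals in both of these. The LXRβ sites had the higher share in each height class. For untreated knockout peaks the shares, from the lowest class to the highest, were 9.54%, 14.9%, 20.3% and 38.3% at LXRβ sites, against 2.95%, 4.55%, 6.54% and 16.7% without LXRβ, and no pair of intervals overlapped. Input moved with this: scaled input tags in the knockout KLA list had a median of 0.4 at the LXRβ sites and 0.2 at p65 sites without LXRβ. They were 1 or more at 11 sites (1.54%) and at 0.506%. The part of input in the difference was not tested.

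**Figure D3:**
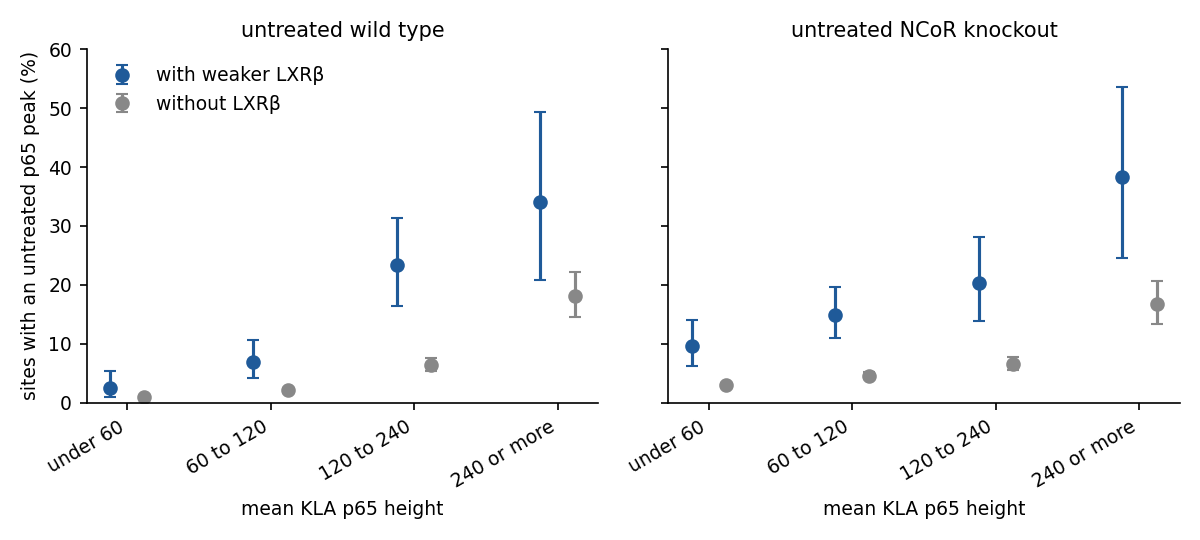
Share of KLA p65 sites that overlap a p65 peak of untreated cells (vertical axis, percent), by the mean of the wild type and knockout KLA height (horizontal axis, normalized tag count), for sites with a weaker LXRβ peak and p65 sites without LXRβ. Points are shares and bars exact 95% Clopper-Pearson intervals; in untreated wild type cells the shares from 120 to 240 are 23.3% and 6.34%.

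Directions with KLA could be read only at sites that kept a KLA peak, which the choice of sites requires. Of the 71 sites with an untreated wild type peak, 60 were higher after KLA and 11 lower, with a median KLA to untreated ratio of 1.83. Of the 105 with an untreated knockout peak, 68 were higher and 37 lower, with a median ratio of 1.41. In the 69 listed untreated in knockout cells only, 41 were higher and 28 lower, with a median ratio of 1.07. An untreated peak needs 5 tags, a height of about 64, to be listed, so sites with little p65 in both states could only enter with a high untreated value. In the other direction, weaker LXRβ peaks with an untreated peak and no KLA peak of the same genotype were left out by the rule. For the knockout these were 41 without KLA p65 in either genotype and 22 with it in wild type cells only, and for the wild type 5 and, with KLA p65 in knockout cells only, 6. The balance of higher and lower sites is therefore a count over the chosen sites alone. At the 36 sites in all 4 p65 lists the median untreated ratio of knockout to wild type was 0.989 and the median KLA ratio 0.960 (0.760 to 1.01). The median untreated heights of these 36 sites, 77.2 in wild type and 76.3 in knockout cells, lie just above the listing limit, so being listed in both genotypes itself holds the untreated ratio near 1. An example is chromosome 3 from 131361191 to 131361311 (LXRβ 16.4), where p65 went from 141.5 untreated to 330.1 with KLA in the wild type and from 114.5 to 328.7 in the knockout.

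A few sites went the other way by a wide margin. At chromosome 2 from 16604693 to 16604813 (LXRβ 11.8) p65 was 725.1 (549 to 939) in untreated knockout cells and 119.5 (73.0 to 185) after KLA, and 321.7 (208 to 475) and 103.8 (65 to 157) in the wild type. On chromosome 3 (152786717 to 152786837, LXRβ 15.5) it was 623.3 (461 to 824) and 95.6 in knockout cells, and 141.5 (70.7 to 253) and 23.6 in the wild type. Chromosome 6 from 10136339 to 10136459 (LXRβ 8.2) had 445.2 (310 to 619) and 29.9 in knockout cells, and 90.1 (36.2 to 186) and 28.3 in the wild type. In all 3, p65 was highest in untreated knockout cells, at 2.25, 4.40 and 4.94 times the untreated wild type height, and was lower with KLA in both genotypes. Scaled input tags of the untreated knockout list were at most 0.1 at these sites. The next tallest untreated knockout value among sites listed in both genotypes was 127.2, at chromosome 9 from 48366944 to 48367064, so the 3 stand well apart from the rest.

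**Figure D4:**
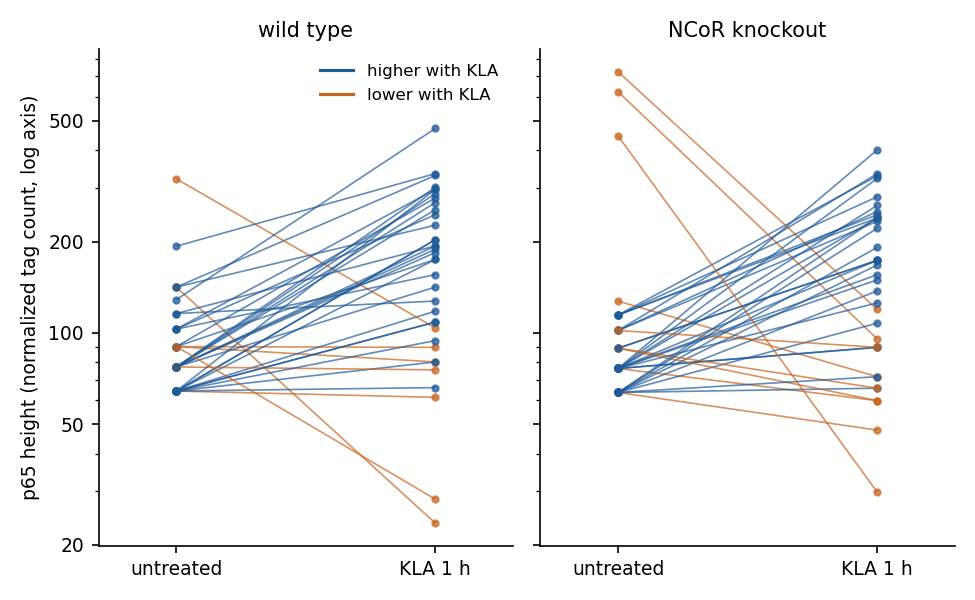
p65 height (vertical log axis, normalized tag count) untreated and after 1 h of KLA in wild type (left) and NCoR knockout macrophages (right), at the 36 sites listed in all 4 p65 libraries. Each line is 1 site, blue where KLA was higher and orange where it was lower; the 3 knockout sites at 445.2 to 725.1 untreated are the steepest falling lines.

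Within a site the LXRβ and p65 peaks did not share a centre exactly. The centres lay a median of 43 bp apart for wild type p65 (quartiles 21 and 71) and 42 bp for knockout p65 (19 and 74). The wild type and knockout p65 centres of the same sites lay a median of 29 bp apart (14 and 54). Within 25 bp were 223 sites (31.1%, 27.8 to 34.7) for LXRβ to wild type p65 and 241 (33.7%) for LXRβ to knockout p65, against 321 (44.8%, 41.1 to 48.6) for the 2 p65 lists. LXRβ centres were thus farther from p65 centres than the p65 centres of the 2 libraries were from each other. The precision of a centre depends on the tags behind it and was not measured here. Overlap itself limits these distances, with a largest value of 132 bp from LXRβ. The 62 stronger sites had medians of 52 and 34.5 bp. Closest together were the 3 centres at chromosome 3 from 103010514 to 103010634, spanning 1 bp (LXRβ 17.3, p65 169.8 and 119.5). They spanned 5 bp on chromosome 6 (15796042 to 15796162) and on chromosome 1 (153536812 to 153536932).

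**Figure D5:**
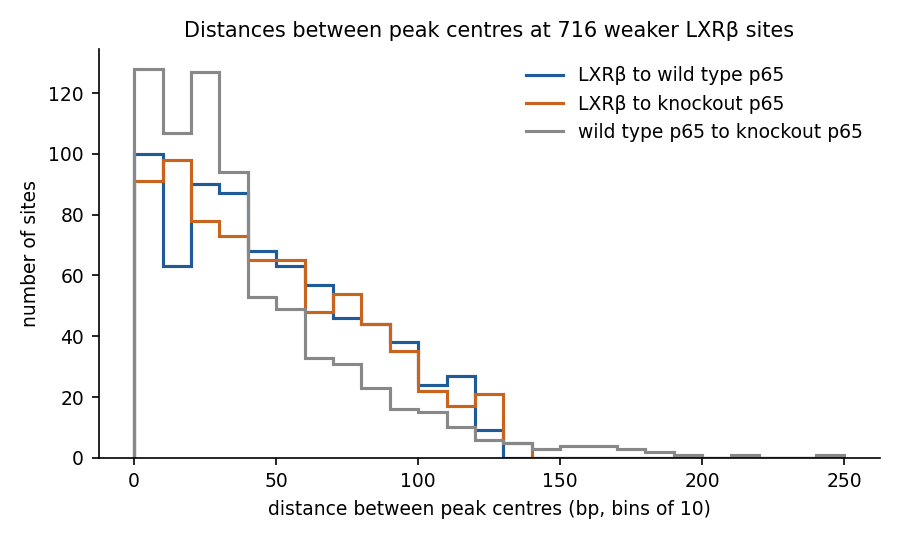
Number of sites (vertical axis) by the distance between peak centres (horizontal axis, bp, in bins of 10), for LXRβ to wild type KLA p65, LXRβ to knockout KLA p65, and wild type to knockout KLA p65. The line for the 2 p65 lists is highest below 30 bp (median 29 bp), and the lines from LXRβ fall more slowly (medians 43 and 42 bp).

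Peak shape differed a little from that of LXRβ peaks without p65. The focus ratio, the share of tags on the side of the centre that their strand predicts, had a median of 0.750 (quartiles 0.684 and 0.812) at the 716 sites and 0.783 (0.714 and 0.846) at the 1230 weaker LXRβ peaks without KLA p65. It was 0.805 at stronger peaks with p65. Fold over the local region was 10.2 at the sites and 11.5 without p65. For the p65 peaks at these sites the median focus ratio was 0.757 in wild type and 0.750 in knockout cells, against 0.765 in both lists for all shared p65 sites. The LXRβ focus ratio median of 0.750 lay within the quartiles of weaker peaks without p65 and below those of stronger peaks with p65 (0.766 and 0.859).

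Many of the sites lay near other p65 peaks, as did stronger LXRβ peaks with KLA p65. A further wild type KLA p65 peak lay within 5 kb of 403 sites (56.3%, 52.6 to 60), where 51.6% of all LXRβ peaks and 50% of all p65 sites in both lists had one. A further knockout KLA peak lay within 5 kb of 366 (51.1%), where 44.4% of all LXRβ peaks had one. For the 62 stronger LXRβ peaks with KLA p65 the shares were 62.9% (49.7 to 74.8) and 56.5% (43.3 to 69.0), intervals that hold the shares of the sites. Another LXRβ peak lay within 10 kb of 179 sites (25%, 21.9 to 28.3), near the 23.3% of all LXRβ peaks. It was 18.2% (16.1 to 20.5) of weaker LXRβ peaks without KLA p65. For stronger LXRβ peaks it was 37.1% (25.2 to 50.3) with KLA p65 in both lists and 38.5% without KLA p65. Another of the 716 sites lay within 10 kb of 84 sites and within 100 kb of 214. Only the sites counted as neighbours there, which by itself lowers these counts. With any other LXRβ peak as neighbour, 429 sites (59.9%) had one within 100 kb, against 57.3% of all LXRβ peaks. Counted by the sites alone, 563 windows of 100 kb held 1 site, 58 held 2, 11 held 3 and 1 held 4.

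The window with 4 sites was on chromosome 3 from 21800001 to 21900000, which also held 12 wild type and 12 knockout KLA p65 peaks, against 0 and 1 untreated. All 4 LXRβ peaks of that window belonged to the sites. The LXRβ peak from 21834983 to 21835103 had a height of 14.6, with KLA p65 at 66.0 (wild type) and 41.8 (knockout), and that from 21836992 to 21837112 had 13.7, with 47.2 and 77.7. From 21861447 to 21861567 LXRβ was 10.9 with p65 at 37.7 and 65.7. The lowest LXRβ peak of the 4, at 8.2 from 21851901 to 21852021, had the tallest p65, 273.5 and 233.0. LXRβ and p65 heights were thus in different order even within 1 window. Of windows with 3 sites, that on chromosome 2 from 116800001 to 116900000 held 5 LXRβ, 10 wild type and 11 knockout KLA peaks. That on chromosome 16 from 11000001 to 11100000 held 3 LXRβ, 11 wild type and 9 knockout KLA peaks.

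By chromosome the sites followed the weaker LXRβ peaks with some spread. Chromosome 3 held 63 sites (8.80% of the sites, 7.83% of weaker LXRβ peaks and 4.88% of p65 sites in both lists), chromosome 2 held 62 and chromosome 6 held 59. Chromosome 16 had the highest share of its weaker LXRβ peaks among the sites, 38 of 86 (44.2%, 33.5 to 55.3), and chromosome 8 had 22 of 109 (20.2%, 13.1 to 28.9). Chromosome X held 4 of 22 (18.2%, 5.19 to 40.3). The interval of chromosome 16 lay above the overall 29.2%, and it is the highest of all chromosomes looked at, so it was picked by its value.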

How the data were processed

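ChIP-seq peak lists of 5 of the 23 samples were used, 1 library in each group, grouped by sample title. The other samples (GRO-seq, histone marks, inputs) were not analysed here. The submitters' processing notes name Bowtie (0.12.7), HOMER and the build mm9. Each list was called by its own findPeaks run at an FDR of 0.001, at 4-fold over the surrounding 10000 bp and with at most 1 tag per bp, per the file headers. An input was used in all lists but wild type KLA, per the file headers. The deposited normalized tag count, a signal, is in tags per 10000000. In the LXRβ list it equals the deposited score times 0.910 at all 2743 peaks (tolerance 0.1), whereas the header's total of tags would give 0.850, so tags were taken from the score there. The deposited focus ratio is a fraction, the deposited folds over input and local region are ratios, and no result rests on the deposited p-values. Scores, folds and focus ratios are the authors' and describe peaks within lists, with medians of different sets set side by side.

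Overlap of 1 bp or more was found with numpy 2.4.6 and pandas 2.3.3 under Python 3.11.15, intervals came from scipy 1.17.1, and the overlap counts equal those of bedtools 2.31.1. The code was tested on simulated data, in which it found 100% of 700 planted overlaps of LXRβ with p65. The planted peaks were copies of LXRβ peaks moved by less than a peak width. Each therefore had to overlap its source, and neither the 1 bp limit nor heights were tested. Where several peaks overlapped, the nearest centre was used. Shares have exact Clopper-Pearson intervals and heights exact Poisson intervals of their tags. Median ratios have intervals by order statistics over sites. The sites and the comparisons were chosen with earlier results of these data known. Named sites are the 5 just inside and outside the height threshold, the 5 with the highest p65 in either KLA list, the 5 highest and lowest ratios, the 5 tallest in untreated knockout cells among those listed in both genotypes, the 3 with the closest centres, the 3 with most LXRβ input tags and the 3 fullest windows of 100 kb.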

Additional observations from a re-analysis of the deposited data

Results flagged for a closer look

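At 2 of the 36 sites in all 4 p65 lists, the listed p65 height was lower with KLA in the knockout and higher in the wild type. Each genotype is 1 library. The difference was not tested. At chromosome 5 from 99792291 to 99792411 the KLA to untreated ratio was 0.738 in knockout and 1.25 in wild type cells, from heights of 89.0 and 65.7 and of 64.3 and 80.2. At chromosome 1 from 178762845 to 178762965 it was 0.880 and 1.03, from 101.8 and 89.6 and from 64.3 and 66.0. Untreated heights of 64.3 rest on 5 tags, with an interval of 20.9 to 150. At both sites the untreated and KLA intervals of each genotype overlapped, so neither change is resolved. In knockout cells they were 35.8 to 183 and 32.8 to 118 on chromosome 5, and 43.9 to 201 and 50.2 to 148 on chromosome 1.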

How the results depend on the processing

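Of 99 recomputed values over 10 results and 12 settings, 81 stayed within their interval (counts within 1.5 times), 15 moved and 3 changed side of 1. The number of sites was 358 with a reciprocal overlap of 50%, where the share of weaker LXRβ peaks was 14.6%, ratios of 2 or more numbered 17 and of 0.5 or less 7, and untreated knockout p65 was at 17.6%. The share of weaker LXRβ peaks with p65 in both KLA lists was 25.1% with centres at most 100 bp apart, 40.2% within 500 bp and 31.9% among LXRβ heights of 10 or more, a setting chosen after seeing the data. With p65 peaks of 40 or more this share was 22.7%, both median p65 heights were 89.6, each ratio count was 9, the median ratio 0.975 and the share with a further wild type peak 61.5%. The median ratio was 0.928 per bp of peak, with 30 sites at 0.5 or less, and 0.977 from the findPeaks score, so its side of 1 depends on the measure. Leaving out LXRβ peaks with 1 or more scaled input tags gave no value, since the lowest was 1.4. Leaving out those above 1.4 instead, chosen after seeing the data, moved no result. The cause of these changes was not tested. No paired analysis was possible because each group was 1 library and the labels carry no replicate numbers. At 5 to 9 tags, depth limits which low peaks are listed.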

Other observations

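Weaker LXRβ peaks with KLA p65 in 1 genotype only lay at lower p65 peaks than the 716 sites. A peak near the tag limit is more easily missing from 1 list, and the part of this in the lower heights was not tested. For 349 of them only the wild type KLA list had a peak, with a median height of 37.7 (quartiles 28.3 and 51.9), and 124 (35.5%) of those peaks held 6 tags or fewer. For 158 only the knockout list had one, with a median of 47.8 (35.9 and 71.7), and 41 (25.9%) held 6 tags or fewer. At the 716 sites these shares were 6.98% in wild type and 9.92% in knockout cells. Of the 158, 125 (79.1%) had a wild type KLA peak within 5 kb that did not overlap the LXRβ peak. Of the 349, 172 (49.3%) had such a knockout KLA peak. Among the 1230 weaker LXRβ peaks without KLA p65 the shares were 46.3% for wild type and 38.5% for knockout KLA peaks. An untreated p65 peak was listed in either genotype at 25 (7.16%) of the 349 and 15 (9.49%) of the 158, against 19.6% of the 716 sites. Taller KLA p65 sites were listed untreated more often, and these shares were not taken at equal KLA height.

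The sites with most LXRβ input tags were at chromosome 3 from 108600780 to 108600900 (4.0 scaled input tags, LXRβ 12.7, p65 28.3 and 41.8), chromosome 2 from 167579509 to 167579629 (3.0, LXRβ 17.3, p65 429.2 and 370.5) and chromosome 3 from 95097736 to 95097856 (3.0, LXRβ 17.3, p65 80.2 and 83.7).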
